A study of Homo sapiens with 8 samples.

Results

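The MAP kinase phosphatases are the dual-specificity phosphatases (DUSPs) that switch off MAP kinases, and the 10 members DUSP1, DUSP2, DUSP4, DUSP5, DUSP6, DUSP7, DUSP8, DUSP9, DUSP10 and DUSP16 were taken by gene symbol from the 58688 genes counted. Expression was measured by RNA-seq in 8 samples of LM2, a lung-metastatic derivative of the human triple-negative breast cancer line MDA-MB-231. Cells given Ponatinib (1 µmol/L, 6 h) and cells given DMSO, the solvent control, had 2 samples each, labelled as repeats. Ponatinib blocks ABL along with several further tyrosine kinases. Stable LM2 lines made with lentiviral shRNAs (short hairpin RNAs that lower the mRNA they target) gave 1 sample per construct: the scrambled control (shCtrl), an shRNA to ABL1, an shRNA to ABL2, and ABL1 and ABL2 shRNAs combined. Every sample came from this 1 cell line, the shRNA lines are single libraries, and nothing states whether the repeats were separate cultures, so p-values measure the spread between these samples, which may be technical.

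MAP kinases such as ERK, JNK and p38 are active when a threonine and a tyrosine of their activation loop are both phosphorylated, and a MAP kinase phosphatase removes both phosphates. The family has an inducible nuclear group (DUSP1, DUSP2, DUSP4, DUSP5), a cytoplasmic group selective for ERK (DUSP6, DUSP7, DUSP9) and a group that prefers JNK and p38 (DUSP8, DUSP10, DUSP16). Several of these genes are themselves transcribed in response to ERK signalling, which makes them both brakes on the pathway and a readout of it. They were examined here across an ABL inhibitor and the knockdown of its ABL targets, the pair of perturbations that the study set side by side.

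Total counts on genes ranged from 7568934 to 13010896 per sample, so that 3 counts corresponded to between 0.2306 and 0.3964 CPM (counts scaled by library size). Levels below are CPM scaled by the trimmed mean of M values (TMM) unless counts are named, and comparisons stay within each experiment. The line markers VIM, CD44, AXL, KRT18 and CAV1 were expressed in every sample, from 144 scaled CPM for KRT18 to 3137 for VIM. The receptors absent from triple-negative cells were at 0 (PGR) or below 0.89 (ESR1). The shRNA libraries matched their labels, since ABL1 was at 189 scaled CPM in shCtrl, 72.9 under its own shRNA, 203 under that to ABL2 and 109 under the pair, and ABL2 was at 235, 213, 93.5 and 148 in the same order. In the drug experiment ABL1 was at 165 and 162 in DMSO and 182 and 193 with Ponatinib, and ABL2 was at 334 and 305 against 147 and 169.

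The promoter stretches of a nuclear and both expressed cytoplasmic members are shown because DUSP6 and DUSP7 fell with Ponatinib and DUSP1 did not pass the test. Each is the 250 bases before the transcript start in RefSeq (GRCh38.p14, all on the minus strand of the chromosome and printed 5′ to 3′ in the direction of transcription), at chr5:172771196-172771445 for DUSP1, chr12:89352502-89352751 for DUSP6 and chr3:52056572-52056821 for DUSP7. Capitals mark the cyclic AMP response element (CRE).
DUSP1: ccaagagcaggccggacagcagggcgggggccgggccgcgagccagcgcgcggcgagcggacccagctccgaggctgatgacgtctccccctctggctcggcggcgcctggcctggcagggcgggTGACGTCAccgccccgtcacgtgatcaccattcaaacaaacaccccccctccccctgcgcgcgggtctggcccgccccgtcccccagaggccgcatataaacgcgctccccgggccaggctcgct
DUSP6: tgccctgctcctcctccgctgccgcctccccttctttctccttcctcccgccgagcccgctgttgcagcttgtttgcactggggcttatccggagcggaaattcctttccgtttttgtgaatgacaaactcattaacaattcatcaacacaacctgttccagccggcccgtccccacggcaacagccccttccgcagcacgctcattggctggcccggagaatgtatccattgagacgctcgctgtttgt
DUSP7: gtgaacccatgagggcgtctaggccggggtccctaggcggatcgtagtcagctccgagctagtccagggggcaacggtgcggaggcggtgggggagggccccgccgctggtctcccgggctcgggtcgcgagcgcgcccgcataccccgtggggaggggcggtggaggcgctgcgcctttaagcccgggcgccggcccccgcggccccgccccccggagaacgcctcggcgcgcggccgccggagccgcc
The CRE (TGACGTCA, a palindrome, so both strands are the same) was found once for DUSP1, starting 125 bases before the transcript start, and in 1.65% of all 35116 RefSeq stretches of this length. DUSP8 had it at 118 and 74 bases before its start. The 10 stretches searched held no AP-1 site (TGANTCA, both strands, 6.57% of all stretches) and no CArG box (both strands, 1.16%). They also held no ETS site in the form CCGGAA (both strands, 14.5%), while the shorter ETS core GGAA was not counted. The stretches belong to 8 members, namely DUSP1, DUSP2, DUSP6, DUSP7, DUSP8, DUSP9, DUSP10 and DUSP16. DUSP4 and DUSP5, which both fell with Ponatinib, were not searched. The site counts are letter matches in a short window and say nothing of whether a factor binds.

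The 10 genes differed widely in level. Per kilobase of exon, mean scaled CPM in DMSO was 107 ± 1.76 for DUSP5, 86.7 ± 2.71 for DUSP4, 48.9 ± 0.32 for DUSP6, 29.7 ± 1.02 for DUSP1 and 12.5 ± 0.14 for DUSP7 (SD, n = 2). DUSP10 followed at 4.95 ± 0.38 and DUSP16 at 2.66 ± 0.05 (SD, n = 2). DUSP2, DUSP8 and DUSP9 were at 0.17 ± 0.09, 0.16 ± 0.13 and 0.05 ± 0.07 per kilobase (SD, n = 2), and these neighbours did not differ beyond their spread. The order of the highest pair depended on the length used, since with the canonical transcript in place of all annotated exons, a choice made after seeing the data, DUSP4 was at 114 and DUSP5 at 110. LM2 cells treated with DMSO thus carried mostly nuclear members and DUSP6, and hardly any DUSP2, DUSP8 or DUSP9 mRNA.

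**Figure D1:**
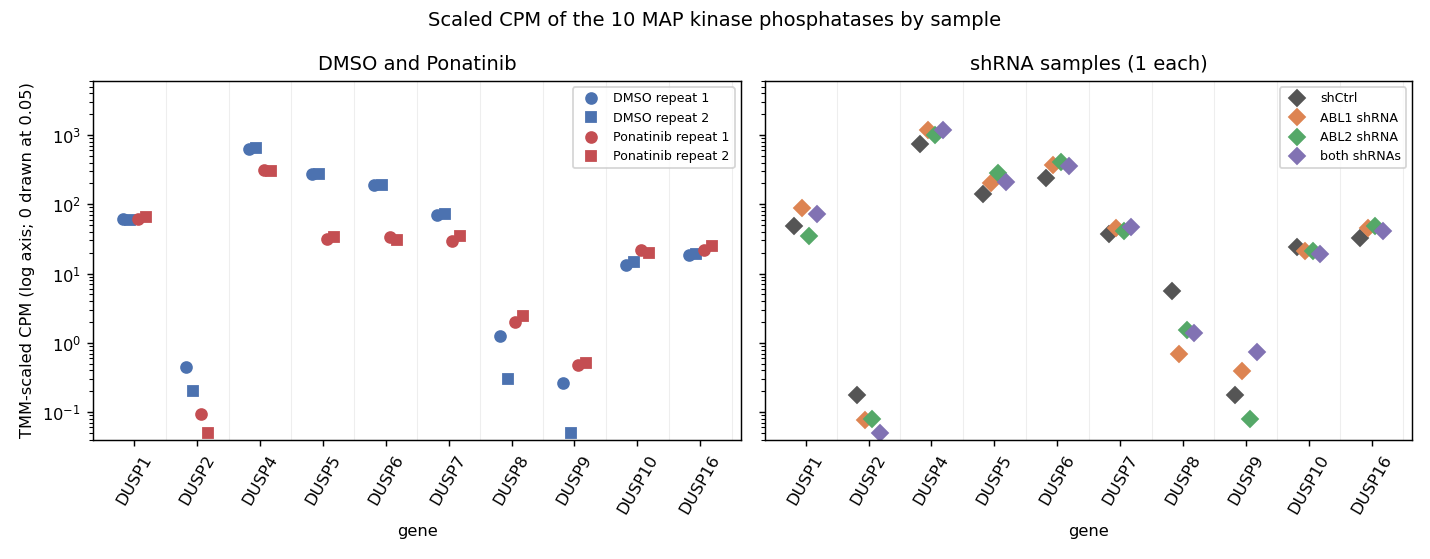
TMM-scaled CPM (vertical, log axis, values of 0 drawn at 0.05) of each MAP kinase phosphatase (horizontal), with 1 point per sample, for DMSO and Ponatinib on the left and for the 4 shRNA samples on the right. The Ponatinib points of DUSP4, DUSP5, DUSP6 and DUSP7 lie below both DMSO points, and the shCtrl point is the lowest of the 4 shRNA samples for DUSP4, DUSP5, DUSP6, DUSP7 and DUSP16.

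Ponatinib lowered 4 of the 8 members that could be tested, all among the ERK-directed or inducible genes, a count that held in every alternative run. At the same threshold 2 members that prefer JNK and p38 rose, but this count was less stable, at 0 with DESeq2's Wald test (1 at an unadjusted p under 0.05) and at 1 without DMSO replicate 2 or when every sample had to hold 10 counts. The members that fell were DUSP5, DUSP6, DUSP7 and DUSP4, and those that rose were DUSP10 and DUSP8. DUSP1 and DUSP16 did not pass the test, and DUSP2 and DUSP9 had too few counts to enter it. Across all 16031 genes tested, 15.7% fell and 15% rose at an adjusted p under 0.05 (edgeR's quasi-likelihood test, Benjamini-Hochberg adjustment). With DESeq2's Wald test, 1404 of 14716 genes fell and 1164 rose. When every sample had to hold 10 counts, 2443 of 14715 fell and 2325 rose. By the study's rule for differential expression, a fold change over 2 with an unadjusted P under 0.05, 4 members fell against 2.29% of all genes and 1 rose, DUSP8, against 3.19%. The median log2 fold change of the 8 tested members was -0.48, beside -0.0047 for all genes, and it was -1.04 with at least 10 counts in every sample or with DESeq2's Wald test, where DUSP8 was not among the tested genes. The 8 are those with enough counts and not the whole family.

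Among the nuclear inducible members, DUSP5 (ENSG00000138166.5, chromosome 10, 110497907 to 110511533) changed most. DUSP5 binds ERK, dephosphorylates it and holds it in the nucleus. Its level was 269 and 275 scaled CPM in the DMSO samples and 31.4 and 33.2 in the Ponatinib samples, so the groups were far apart and each pair was tight. It fell by 88.1%, a log2 fold change of -3.08 ± 0.07 (SE, n = 2 each, edgeR adjusted p = 9.4e-13). In the alternatives tried, its log2 fold change stayed between -3.12 and -3.02. In bulk RNA such as this, fewer cells expressing a gene and less of its mRNA per cell cannot be told apart.

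DUSP4 (ENSG00000120875.5, chromosome 8, 29333064 to 29350684), a nuclear phosphatase of ERK and other MAP kinases, was the member with the most reads. It stood at 617 and 645 scaled CPM in DMSO and at 310 and 305 with Ponatinib. It fell by 51.3% (log2 fold change -1.04 ± 0.06, SE, n = 2 each, edgeR adjusted p = 5.4e-09), just past 2-fold, a value that lies inside its 95% interval of -1.16 to -0.91.

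DUSP1 (ENSG00000120129.5, chromosome 5, 172768096 to 172771195) is an immediate-early phosphatase of p38, JNK and ERK. Its level was 61.2 and 58.3 scaled CPM in DMSO and 60.97 and 65.7 with Ponatinib, and the groups overlapped. The log2 fold change was 0.08 ± 0.08 (SE, n = 2 each, edgeR adjusted p = 0.47) with a 95% interval from -0.08 to 0.24. DUSP2, an inducible phosphatase best known from immune cells, had 5 and 2 counts in DMSO and 1 and 0 with Ponatinib, and any difference was not detectable at this depth.

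Both cytoplasmic members that were expressed fell. DUSP6 (ENSG00000139318.7, chromosome 12, 89347235 to 89352501), which is specific for ERK and widely used as a marker of ERK output, was at 188 and 190 scaled CPM in DMSO and at 33.5 and 29.99 with Ponatinib. It fell by 83.1% (log2 fold change -2.56 ± 0.08, SE, n = 2 each, edgeR adjusted p = 9.1e-12). Its exons share 1105 bases with an antisense long non-coding RNA, ENSG00000274021, that was counted separately, with 16 and 14 counts in DMSO and 3 and 6 with Ponatinib. The strand setting of the counting is not given in the sources used here, so reads of the shared bases cannot be told apart, but the antisense gene held few reads beside the 2129 and 1878 counts of DUSP6 in DMSO.

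DUSP7 (ENSG00000164086.9, chromosome 3, 52048919 to 52056571), a cytoplasmic ERK phosphatase closely related to DUSP6, was at 70.4 and 71.5 scaled CPM in DMSO and at 29.9 and 34.7 with Ponatinib. It fell by 54.8% (log2 fold change -1.15 ± 0.09, SE, n = 2 each, edgeR adjusted p = 1.4e-07). DUSP9, a cytoplasmic ERK phosphatase known from placenta, had 3 and 0 counts in DMSO and 5 and 4 with Ponatinib and was not tested.

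None of the 3 members that prefer JNK and p38 fell. DUSP10 (ENSG00000143507.14, chromosome 1, 221701424 to 221742089) was at 13.2 and 14.7 scaled CPM in DMSO and at 21.6 and 19.99 with Ponatinib, with no overlap. It rose by 0.58 ± 0.12 on the log2 scale (SE, n = 2 each, edgeR adjusted p = 0.0025), whereas DESeq2's Wald test gave an adjusted p of 0.052. DUSP16 (ENSG00000111266.5, chromosome 12, 12473282 to 12562863), a JNK phosphatase, was at 18.7 and 19.2 in DMSO and 21.9 and 24.9 with Ponatinib. The pairs did not overlap, but the log2 fold change of 0.30 ± 0.12 (SE, n = 2 each) had an edgeR adjusted p of 0.065, and without Ponatinib replicate 1 it was 0.41 with an adjusted p of 0.012.

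DUSP8 (ENSG00000184545.7, chromosome 11, 1554051 to 1572271), a JNK and p38 phosphatase known mainly from brain and heart, had 14 and 3 counts in DMSO and 21 and 19 with Ponatinib. The DMSO samples differed from each other by 2.03 on the log2 scale, more than the log2 fold change of 1.44 ± 0.46 (SE, n = 2 each, edgeR adjusted p = 0.026). Without DMSO replicate 2 the log2 fold change was 0.82 and the adjusted p 0.25, so this call rests on 1 library. Its pseudogene DUSP8P5 had more counts than DUSP8 in each of these samples (30 and 35 in DMSO, 44 and 34 with Ponatinib), and how reads were split between the pair is not known.

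**Figure D2:**
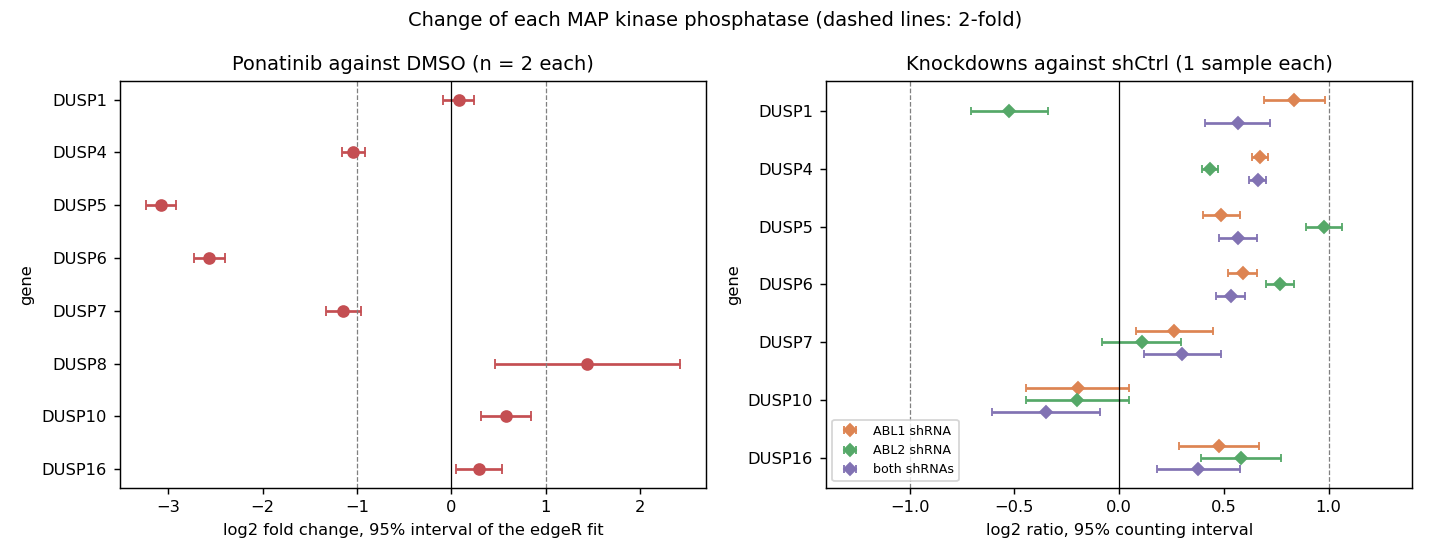
Log2 fold change of the 8 tested members after Ponatinib with the 95% interval of the edgeR fit (left, n = 2 each), and log2 ratio of the 7 members measured in the shRNA samples to shCtrl with 95% counting intervals (right, 1 sample each). DUSP5 and DUSP6 lie beyond -2 on the left, and on the right no point passes the dashed 2-fold lines. The points of DUSP4, DUSP5, DUSP6, DUSP7 and DUSP16 lie above 0 in all 3 knockdowns, but the DUSP7 interval with ABL2 shRNA includes 0.

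In sum over the family, the change was a loss of mRNA together with a shift in make-up. The scaled CPM per kilobase of all 10 members added up to 290 and 296 in DMSO and to 111 and 113 with Ponatinib. DUSP4, DUSP5 and DUSP6 together made up 82.5% and 83.2% of that sum in DMSO and 57.6% and 55.7% with Ponatinib. DUSP1 went from 10.5% and 9.8% of the sum to 27.4% and 28.9%, with its own level not passing the test. DUSP5 alone went from 36.5% and 36.7% to 11.2% and 11.6%. These sums follow from the levels of the members given above and add no separate test.

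**Figure D3:**
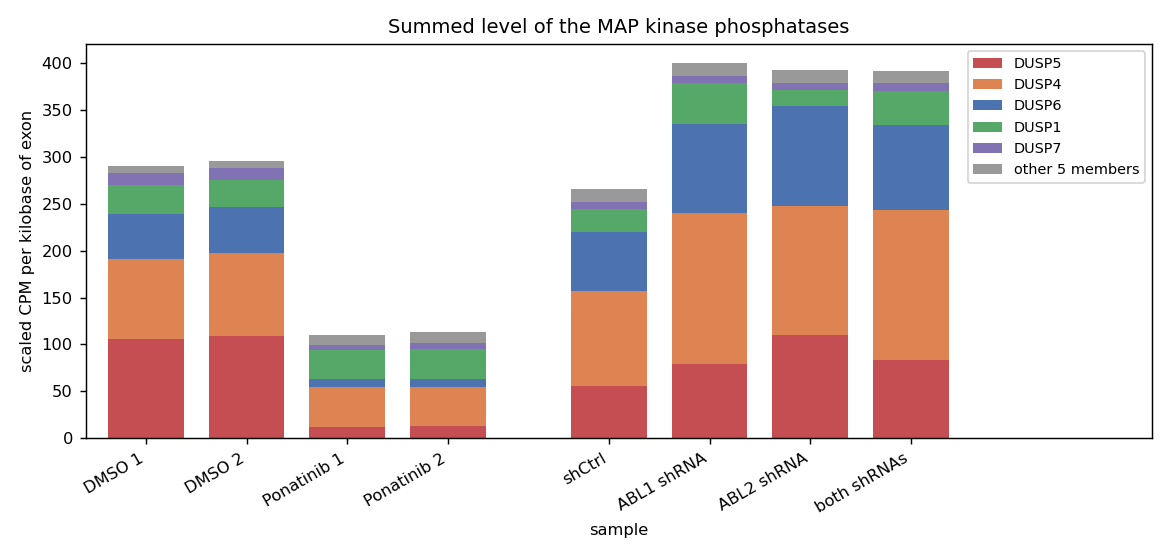
Scaled CPM per kilobase of exon (vertical) summed over the 10 members in each of the 8 samples (horizontal), with DUSP5, DUSP4, DUSP6, DUSP1 and DUSP7 as coloured segments and the other 5 members in grey. The Ponatinib bars reach 111 and 113 against 290 and 296 in DMSO, and the 3 knockdown bars reach 392 to 400 against 266 in shCtrl.

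In the knockdowns of ABL1, ABL2 or both, most members lay above the scrambled control. Of the 7 members with enough counts in the shRNA samples, 6 were above shCtrl under ABL1 shRNA, 5 under that to ABL2 and 6 under the pair. Their median log2 ratios were 0.49, 0.43 and 0.53 beside 0.0040, -0.0072 and 0.00084 for all 14231 genes, of which 7179, 6973 and 7128 lay above shCtrl. None of the 7 members passed 2-fold in any knockdown, whereas DUSP8, left out by the filter on low counts, was past 2-fold downward in all 3 (values given further on). This is the threshold that 2.47% of all genes passed downward and 2.54% upward with ABL1 shRNA, 1.6% and 2.67% when ABL2 was targeted, and 1.74% and 2.32% for the pair. Each group is 1 library, so no difference between these samples has a replicate check, and the 95% intervals cover counting error only. The 3 knockdowns are also compared with the same shCtrl library, which was the lowest of the 4 samples for 5 of the 7 members and for 29.8% of all genes.

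The order of values from here on is shCtrl, ABL1 shRNA, ABL2 shRNA, both. DUSP6 was at 243, 366, 413 and 351 scaled CPM. All knockdown samples were above shCtrl, by log2 ratios of 0.59 (95% counting interval 0.52 to 0.66), 0.77 (0.70 to 0.83) and 0.53 (0.46 to 0.60). The antisense gene at its locus had 15, 31, 43 and 18 counts.

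DUSP5 was at 142, 199.7, 280.0 and 211 scaled CPM, again lowest in shCtrl. Its ratio of 1.97 with ABL2 shRNA was the largest of any of the 7 members in a knockdown, a log2 ratio of 0.98 (95% counting interval 0.89 to 1.06). Scaled by total counts in place of TMM, that ratio passed 2-fold with a log2 value of 1.02. DUSP4 was at 736, 1171, 994 and 1164 in the same order, and its log2 ratios of 0.67, 0.43 and 0.66 each had a counting interval above 0.

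DUSP7 was at 37.6 scaled CPM in shCtrl and 45.1, 40.5 and 46.3 in the knockdowns, and with ABL2 shRNA the counting interval of its log2 ratio (-0.08 to 0.30) included 0. DUSP16 was at 32.2 in shCtrl and at 44.7, 48.1 and 41.8, with log2 ratios of 0.48, 0.58 and 0.38. DUSP10 was the one of the 7 that lay below shCtrl throughout, at 24.4 scaled CPM against 21.3, 21.3 and 19.2, and only with both shRNAs did its counting interval (-0.61 to -0.09) lie below 0.

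DUSP1 was the member whose direction differed between the knockdowns. It was at 49.2 scaled CPM in shCtrl and at 87.9, 34.2 and 72.9 in the knockdowns. The log2 ratios were 0.84 (95% counting interval 0.69 to 0.98), -0.52 (-0.71 to -0.34) and 0.57 (0.41 to 0.72), so the sample with both shRNAs lay on the side of ABL1 shRNA.

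DUSP8, outside the set of 7, had 64 counts in shCtrl and 9, 19 and 17 in the knockdowns, so that shCtrl stood apart, with ratios of scaled CPM of 0.124, 0.269 and 0.250. With a filter of 10 counts in any shRNA sample, chosen after seeing the data, it was 1 member past 2-fold downward in each knockdown. The share of all genes under that filter is not given here. DUSP8P5 had 60, 64, 85 and 66 counts in the same samples. DUSP2 had 2, 1, 1 and 0 counts and DUSP9 had 2, 5, 1 and 9, too few for a comparison.

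PECAM1, an endothelial and platelet marker, moved in the same direction as most members, at 20.4 scaled CPM in shCtrl and 30.7, 39.6 and 32.4 in the knockdowns, while in DMSO and Ponatinib samples it was at 2.34 to 3.98. The other 4 markers of other cell types (PTPRC, CD3E, CDH5 and ALB) were at or below 0.26 in every sample, and all 5 summed to 20.9 in shCtrl, 31.1 to 39.8 in the knockdowns and 2.73 to 4.17 in the drug experiment. CDH5, which defines endothelial cells, was at 0 in the drug experiment and at most 0.25 in the shRNA samples. Its part and that of PECAM1 in the knockdown values was not tested.

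Other phosphatases, the MAP kinases and their activators give the setting of these values in the Ponatinib comparison. Of 15 atypical DUSPs, which lack the MAP kinase-binding domain, 10 were tested, 2 fell and 1 rose, shares near the 15.7% and 15% of all genes. DUSP23 was at 10.2 and 11.4 scaled CPM in DMSO and 5.69 and 7.79 with Ponatinib (log2 fold change -0.71, edgeR adjusted p = 0.0082), DUSP14 fell by 0.59 on the log2 scale (edgeR adjusted p = 2.6e-05), and DUSP28 rose by 0.77 (edgeR adjusted p = 0.048). Of 8 other phosphatases that act on MAP kinases, 6 were tested, and PPP2CB fell by 0.22 and PPM1A rose by 0.26 on the log2 scale (edgeR adjusted p = 0.034 and 0.012). The median log2 fold change was 0.05 for the atypical DUSPs and -0.08 for the other phosphatases, against -0.0047 for all genes.

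Of the 10 MAP kinases themselves, 9 were tested, MAPK13 (p38 delta) fell by 0.31 and MAPK3 (ERK1) rose by 0.27 on the log2 scale (edgeR adjusted p = 0.011 and 0.032). The other 7 did not pass the test, while 15.7% of all genes fell and 15% rose. Among the 7 MAP2K kinases, which phosphorylate the MAP kinases, MAP2K6, an activator of p38, was at 0.79 and 1.52 scaled CPM in DMSO and at 20.2 and 24.7 with Ponatinib, a log2 fold change of 4.28 ± 0.24 (SE, n = 2 each). MAP2K3, which also activates p38, went from 125 and 134 to 66.1 and 64.3 (log2 fold change -0.99). MAP2K1, which activates ERK, fell by 0.29 on the log2 scale (edgeR adjusted p = 0.0047). In the knockdowns, none of the 10 atypical DUSPs, 6 other phosphatases, 9 MAP kinases and 7 MAP2K kinases measured passed 2-fold either way. Of all genes, only 1.6% to 2.47% passed it downward and 2.32% to 2.67% upward.

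A list of 13 ERK output genes, which respond to ERK signalling as several members do, was tested in full. All 13 fell, 8 of them by the study's rule, with a median log2 fold change of -1.31. Of all 16031 genes tested, 15.7% fell at an adjusted p under 0.05 (edgeR's quasi-likelihood test) and 2.29% by that rule. The list was chosen with earlier results of these data known, so its values are no separate test. SPRY4, an inhibitor of receptor tyrosine kinase signalling, was at 289 and 303 scaled CPM in DMSO and 27.4 and 26.0 with Ponatinib (log2 fold change -3.47). FOSL1, an AP-1 subunit, fell by 2.35 on the log2 scale and EGR1, an immediate-early transcription factor, fell by 2.31. In the knockdowns 12 of the 13 were above shCtrl each time, all but EPHA4, beside 7179, 6973 and 7128 of all 14231 genes. The 3 knockdowns are set against the same shCtrl library, so these are not separate counts. SPRY4 was at 229, 628, 541 and 623 scaled CPM, past 2-fold in all 3 knockdowns. EPHA4, a receptor tyrosine kinase, was at 13.1, 5.48, 10.3 and 6.75, with log2 ratios of -1.26, -0.35 and -0.96, so that it passed 2-fold downward with ABL1 shRNA.

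**Figure D4:**
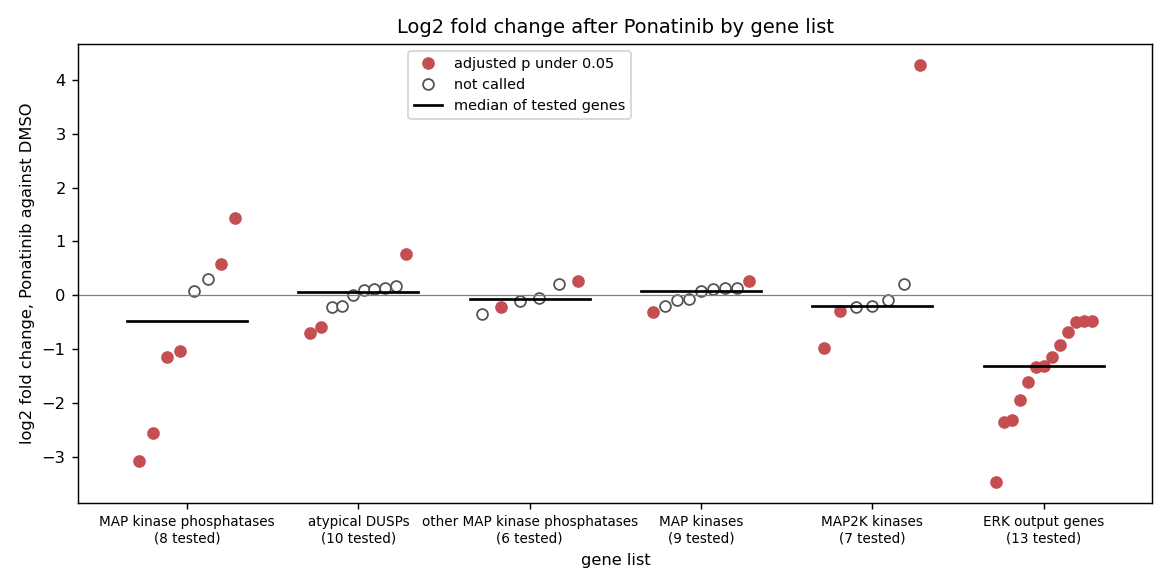
Log2 fold change after Ponatinib (vertical) of each tested gene in 6 gene lists (horizontal), with filled points for genes at an edgeR adjusted p under 0.05, open points for the rest and a bar at the median. All 13 ERK output genes lie below 0, the phosphatase family spans -3.08 to 1.44, and MAP2K6 at 4.28 lies far above the other genes shown.

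The genes most like DUSP6 and DUSP5 over the 4 comparisons were sought by Euclidean distance between log2 fold changes, among 11548 genes with a mean of at least 5 CPM. For DUSP6 the nearest were ANGPTL4 (distance 0.41), EGR1 (0.44), HBEGF (0.54), DUSP5 (0.56) and PLAUR (0.59). For DUSP5 they were CSF3 (0.54), DUSP6 (0.56), ANGPTL4 (0.77), HBEGF (0.82) and EGR1 (0.85). Because these genes were picked by the same 4 values, their likeness to DUSP6 or DUSP5 follows from the choice. They fell with Ponatinib, from a log2 fold change of -2.003 for PLAUR to -3.44 for CSF3. Their log2 ratios were above 0 in the 3 knockdowns, which share the shCtrl library.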

How the data were processed

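RNA-seq libraries of 8 LM2 samples were analysed. Per the labels and the study's methods, the authors mapped reads to hg38 with TopHat and counted them per gene (HTSeq 0.6.0 in the submitters' processing notes), and deposited raw counts, 1 file per sample. The file headers of shCtrl and ABL1 shRNA carry swapped condition names, and both samples were used as labelled. In the shRNA files, 9.48% to 9.9% of reads had no feature and 6.12% to 6.32% were ambiguous, and these rows were left out.

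Ponatinib was compared with DMSO by edgeR 4.0.16 under R 4.3.3 (TMM, filterByExpr, quasi-likelihood test, prior count 0.125, Benjamini-Hochberg over 16031 genes). Each knockdown, 1 library, was set against shCtrl as a ratio of scaled CPM with an exact 95% counting interval. Symbols, positions and exon lengths came from GENCODE release 44 on GRCh38, and all 75 list genes matched. The members and gene lists were chosen with earlier results of these data known. Named are all members, ABL1, ABL2, up to 3 called genes per list with the largest changes, and the 5 genes nearest DUSP6 and DUSP5. The script was tested on simulated data, where 164 of 193 changed genes were recovered, 73 of the 98 changed 2-fold among them, with 1 unchanged gene called. The simulation gave every gene the same dispersion and had few changed genes, all by 2-fold or more. Its rates may therefore not hold for these data. Replicate pairs had r of 0.996 (DMSO) and 0.993 (Ponatinib) and differed by more than counting noise (chi-square per degree of freedom 1.44 and 3.12). Alternatives were DESeq2 1.42.0 (size factors, Wald test), other filters, total counts, a prior count of 2, a fold of 1.5, all 8 samples, the replicate block and leaving out each sample.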

Additional observations from a re-analysis of the deposited data

How the results depend on the processing

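The number of members that fell with Ponatinib was 4 under every alternative run, and none of the 8 tested members changed sign. The number that rose was 2, but 1 with at least 10 counts in every sample, 1 by the fold and unadjusted P rule, 0 with DESeq2's Wald test (1 at an unadjusted p under 0.05, DUSP10), and 1 to 3 when a replicate was left out (1 without DMSO replicate 2, where DUSP8 had an adjusted p of 0.25, and 3 without Ponatinib replicate 1, where DUSP16 joined). Over all genes, 2406 of 16031 rose in the main fit. The number was 2325 of 14715 with at least 10 counts in every sample and 1164 of 14716 with DESeq2's Wald test. The numbers that fell were 2511, 2443 and 1404. Shares of all genes are not given for the fits without a replicate. The median log2 fold change of the tested members was -0.48, and -0.50 to -0.44 when a replicate was left out. It was -1.04 with at least 10 counts in every sample and with DESeq2's Wald test. DUSP8 was not among the tested genes in either. DUSP10 lost its call with DESeq2's Wald test (adjusted p = 0.052) and DUSP16 gained one without Ponatinib replicate 1 (0.012). The cause was not tested. With a replicate block for the repeat number there were again 4 falls and 2 rises and a median of -0.48. The difference between repeats in DMSO and that in Ponatinib had a correlation of 0.0287 across 11969 genes. This cannot tell whether repeats with the same number were made together. In the knockdowns, at a fold of 1.5, 3 members passed upward under ABL1 shRNA, 2 under that to ABL2 and 1 under the pair. With total counts 1 passed 2-fold with ABL2 shRNA (DUSP5), and with 10 counts in any shRNA sample, added after seeing the data, 1 passed downward in each (DUSP8). The shares of all genes under these settings are not given, so these knockdown counts stand without a background. Of 63 member ratios recomputed with total counts, DESeq2 size factors or a prior count of 2, 61 stayed within their counting interval, 2 of DUSP4 left it with total counts (0.47 with ABL2 shRNA, 0.70 with both), and 0 changed sign. Levels under about 0.40 CPM were below 3 counts in the shallowest library. DUSP2 and DUSP9, with at most 5 and 9 counts in any sample, did not pass the low-count filter and had too few counts to compare. No knockdown has a replicate.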
